A study of Mus musculus with 20 samples.

Results

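The genes described here are 10 genes of the basement membrane: the type IV collagen chains Col4a1 and Col4a2, the laminin chains Lama4, Lama5, Lamb1, Lamb2 and Lamc1, the nidogens Nid1 and Nid2, and Hspg2, which encodes perlecan. They were chosen by name, but with earlier results of these data known. They belong to 18193 genes that had a probe set of their own on the Affymetrix Mouse Genome 430 2.0 array. A gene's value was the MAS5 signal of its brightest probe set, and its other probe sets served as a check (21 probe sets for the 10 genes). RNA came from mouse flank tissue. The control group held 5 arrays of day 0 (A to E). The vector Ad-VEGF-A164, an adenovirus carrying a gene for an isoform of the vessel growth factor VEGF-A, had been given in the other groups: day 5 with 4 arrays (B to E), day 20 with 5 and day 60 with 5. One array, titled as day 5 A but with the control's source name, entered no comparison. Strain, age, sex and vector dose were not given in the sources used here. No group with a vector lacking VEGF-A was analysed here, so VEGF-A, the virus and time cannot be told apart. Whether each array stands for its own animal is not stated, so the p-values speak only of how far these samples spread, and that spread may be technical.

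A basement membrane is the thin sheet of matrix on which endothelial and epithelial cells rest and which wraps pericytes, muscle fibres, fat cells and Schwann cells. Laminins, each made of an alpha, a beta and a gamma chain, form one network at the cell surface, and type IV collagen, in vessels mostly a trimer of Col4a1 and Col4a2 chains, forms another. Nidogens and perlecan connect the networks. Vessels carry laminins with the alpha4 or the alpha5 chain, and a sprouting vessel both breaks down and lays down this matrix.

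Of the 10 genes, 7 rose on day 5: Col4a1, Col4a2, Lama4, Lamb1, Lamc1, Nid1 and Nid2. The same 7 rose on day 20, and none of the 10 passed on day 60. Changes ranged from 1.64-fold for Nid1 to 12.1-fold for Nid2 on day 5, and from 1.84-fold for Nid1 to 11.1-fold for Nid2 on day 20. Lama5, Lamb2 and Hspg2 did not pass on any day. Calls are limma's at a Benjamini-Hochberg adjusted p under 0.05 over 13594 tested genes. Changes were measured as log2(signal + 100), so those of dim genes come out too small, and ± after a log2 change is its standard error. Over all tested genes, 16.8% were higher and 17.5% lower on day 5, 15.6% and 14.5% on day 20, and 0.368% and 0.765% on day 60. The day 60 shares, 50 and 104 genes, moved widely when single arrays were left out, from 4 (without control A) to 326 (without control B) higher and from 17 (without control E) to 267 (without control B) lower. On day 60, 0 of the 10 genes had an unadjusted p under 0.05, beside 15.9% of tested genes. Day 5 arrays all lay above all control arrays for 14.5% of tested genes and for 7 of the 10. The median log2 change of the 10 genes was 1.42 on day 5, 1.52 on day 20 and 0.05 on day 60, beside -0.07, -0.06 and 0.01 over all tested genes. In bulk tissue more cells of a type and more RNA per cell cannot be told apart.

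**Figure D1:**
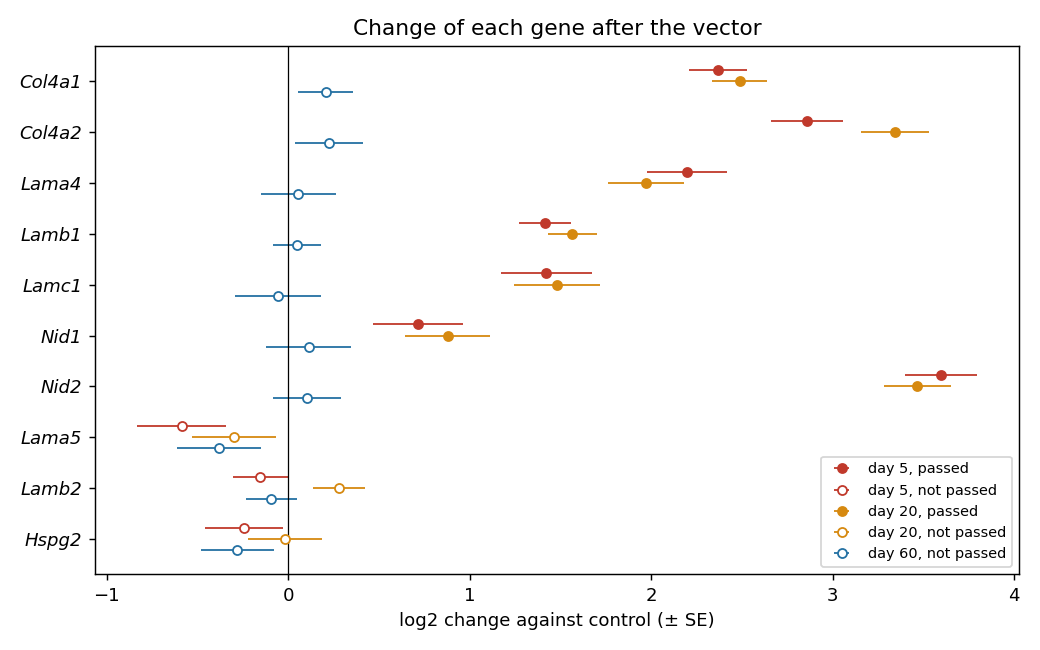
Log2 change of each gene against control (horizontal axis, ± SE from limma) on day 5, day 20 and day 60, with filled points for changes that passed the test. The 7 upper genes lie to the right of 0 on days 5 and 20 and near 0 on day 60, with Nid2 and Col4a2 farthest right, while Lama5, Lamb2 and Hspg2 have open points on each day.

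The labels were checked on Vegfa, whose brighter probe set read 66.5 to 467 on control arrays, 3927 to 9410.0 on day 5, 7128 to 13514 on day 20 and 219 to 1076 on day 60. The other Vegfa probe set ran the opposite way, from a mean of 2022 in control to 719.9 on day 5. Median signals were 405.9 to 569.3 per array, and the Actb 3' to 5' ratio, which grows as RNA breaks down, was 4.15 to 9.12 in control (mean 7.1), 2.95 to 7.31 on day 5 (4.82), 2.6 to 7.56 on day 20 (4.48) and 4.32 to 13.97 on day 60 (8.82). It was thus lower on average on the days when the 7 genes were high, and highest on day 60 arrays A, B and D. With the ratio as a covariate the same number of the 10 genes was called against control on each day. Leaving out day 60 arrays A, B and D together changed no count of the 10 genes against control. Without them 1 gene was called higher on day 20 than on day 5, Col4a2, and Nid1 was called lower on day 60 than on day 5. The covariate also called that Nid1 difference (adjusted p = 0.046).

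The type IV collagen chains rose steeply and together. Col4a1 read 15607, 15131, 17317, 16632 and 20408 on control arrays A to E, 78907, 74123, 94060.0 and 108068 on day 5 arrays B to E, 85046, 91821, 104525, 81963 and 118226 on day 20 arrays A to E and 19474, 27189, 14820.4, 18952 and 19206 on day 60 arrays A to E. Every day 5 and day 20 array lay above every control and day 60 array, and control and day 60 overlapped. The change was 5.16-fold on day 5 (log2 2.37 ± 0.16; adjusted p = 8.04e-09) and 5.61-fold on day 20 (2.49 ± 0.15, adjusted p = 1.38e-09).

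Col4a2 encodes the partner chain of the same trimer. It read 4870.3, 4979.9, 4025, 4861 and 5299 on control arrays, 31846, 36500.2, 33518 and 39853 on day 5, 43621, 55704, 49970.0, 41708 and 59302 on day 20 and 6807, 9368, 3518, 5229 and 4752 on day 60. The groups separated as for Col4a1, and in addition all 5 day 20 arrays lay above all 4 day 5 arrays, as did the day 20 arrays of 6.41% of tested genes. Col4a2 rose 7.24-fold on day 5 (log2 2.86 ± 0.20; adjusted p = 1e-08) and 10.2-fold on day 20 (3.35 ± 0.19, adjusted p = 5.3e-10). Its difference between day 20 and day 5 was 0.49 ± 0.20 (adjusted p = 0.166) and passed when only both compared groups were fitted (adjusted p = 0.0353).

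Both collagen genes lie head to head on chromosome 8 and are read in opposite directions. In the RefSeq promoter table (GRCm38.p6) the start of Col4a2 is at position 11312805 on the plus strand and that of Col4a1 at 11312826 on the minus strand. The stretch chr8:11312801-11312830 is shown because it holds the starts of both genes in that table. The RefSeq gene record of Col4a1 begins further upstream, at 11312889, outside the stretch. The stretch is written on the plus strand, the Col4a2 sense strand. The genes overlap at their starts, and the 22 bases from one start to the other, which belong to both genes, are in capitals:
Col4a1 and Col4a2 starts: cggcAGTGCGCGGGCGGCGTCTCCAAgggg
The 250 bases before the start held 74.4% G and C for Col4a1 and 73.6% for Col4a2, beside a median of 52.4% over 32851 promoters. Searched on both strands, the letters CCAAT occurred 1 time in each, GGGCGG 2 times for Col4a2 and 0 times for Col4a1, and TATAAA 0 times in either, where 33.8%, 32.7% and 12.4% of all promoters held them. Such matches describe the letters in these windows only, and each window lies inside the other gene's record. The capitals lie outside both windows and hold the letters GGGCGG too.

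**Figure D2:**
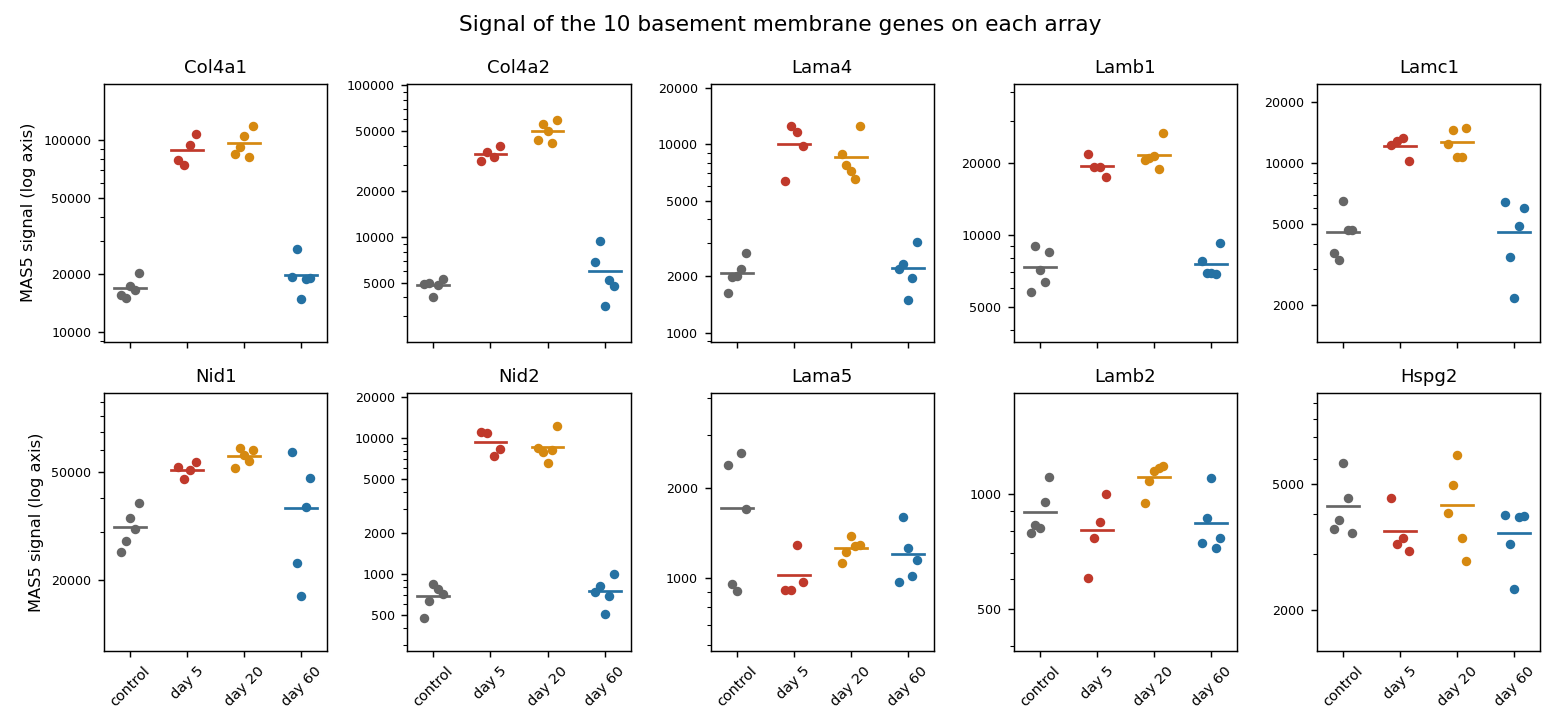
MAS5 signal of each gene's brightest probe set (vertical log axis, scaled per panel) for the control, day 5, day 20 and day 60 arrays. Points are arrays and lines are group means. In the panels of Col4a1, Col4a2, Lama4, Lamb1, Lamc1, Nid1 and Nid2 all day 5 and day 20 points lie above all control points, and in those of Lama5, Lamb2 and Hspg2 the groups overlap.

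Of the laminin chains, alpha4, beta1 and gamma1 rose, the chains that together form a main laminin of small vessels. Lama4, the alpha4 chain, read 1617, 1969, 2011, 2175 and 2639 on control arrays, 6412, 12533, 11630.0 and 9799 on day 5, 8858, 7766, 7187, 6543 and 12573 on day 20 and 2192, 2328, 1492, 1946 and 3039 on day 60. Day 5 B was the lowest of its group, at 6412, and still lay above the highest control array. Lama4 rose 4.58-fold on day 5 (log2 2.20 ± 0.22; adjusted p = 5.44e-07) and 3.92-fold on day 20 (1.97 ± 0.21, adjusted p = 1.08e-06).

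Lamb1, the beta1 chain, read 5750.2, 8945, 7126, 6351 and 8497 on control arrays, 21909, 19316, 19291 and 17556 on day 5, 20636, 21093, 21425, 18974 and 26686 on day 20 and 7755, 6936, 6934, 6851 and 9208 on day 60. Its lowest day 5 array, at 17556, lay far above its highest control array, at 8945. The rise was 2.67-fold on day 5 (log2 1.42 ± 0.14; adjusted p = 4.96e-07) and 2.96-fold on day 20 (1.57 ± 0.13, adjusted p = 7.93e-08).

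Lamc1, the gamma1 chain and the one to which nidogens bind, read 3603, 3352, 6508, 4702 and 4699.9 on control arrays, 12292, 12837, 13269 and 10232 on day 5, 12493, 14593, 10751, 10791 and 14966 on day 20 and 6422, 3459, 2178, 4892 and 5997 on day 60. Control C was the highest control and day 60 C the lowest array of all. Lamc1 rose 2.68-fold on day 5 (log2 1.42 ± 0.25; adjusted p = 0.000225) and 2.79-fold on day 20 (1.48 ± 0.24, adjusted p = 9.74e-05), so that beta1 and gamma1 had close log2 changes on both days.

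Lama5 and Lamb2 encode the alpha5 and beta2 chains, which are found in laminins of mature vessels, epithelia and, for beta2, the nerve-muscle junction. Lama5 read 2384, 960.0, 905, 2624 and 1708 on control arrays, 912, 914, 1289.8 and 976 on day 5, 1128, 1221, 1380.4, 1281 and 1292 on day 20 and 975, 1599, 1263, 1022 and 1155 on day 60. Its controls fell into 3 high and 2 low arrays (B and C), and the other groups lay between 911.8 and 1599. The log2 shift was -0.59 ± 0.25 on day 5 (SE, limma adjusted p = 0.072, 95% interval -1.10 to -0.07) and -0.30 ± 0.23 on day 20 (adjusted p = 0.352). The day 5 difference passed without control B (-0.75, adjusted p = 0.0186), without control C (-0.77, adjusted p = 0.0153) and with array weights (-0.73, adjusted p = 0.014).

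Lamb2 read 792, 827, 817, 950.3 and 1106 on control arrays, 602, 767, 846 and 1002 on day 5, 949.9, 1085, 1149.6, 1168 and 1185 on day 20 and 745, 866, 1099, 723 and 766 on day 60. The day 20 arrays were the narrowest group and overlapped with every other. The log2 change was -0.15 ± 0.15 on day 5 (SE, limma adjusted p = 0.463, 95% interval -0.47 to 0.16) and 0.28 ± 0.14 on day 20 (adjusted p = 0.145, interval -0.02 to 0.58). The log2 difference of day 60 from day 20 was -0.37 (adjusted p = 0.0663), a difference that passed without day 60 C (adjusted p = 0.0237), without day 5 B (0.0498), with quantile normalization (0.0285), with centring on the 75th percentile (0.0305) and with array weights (0.0206).

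Both beta chain genes are shown with the 50 bases before their RefSeq gene records (GRCm38.p6, plus strand in both), because one rose and the other did not pass and their promoters differ in composition. The stretches are chr12:31265096-31265145 for Lamb1 and chr9:108479797-108479846 for Lamb2, in lower case with no motif marked:
Lamb1: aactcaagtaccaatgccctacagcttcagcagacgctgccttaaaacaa
Lamb2: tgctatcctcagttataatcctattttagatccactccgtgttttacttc
G and C made up 46% of the Lamb1 stretch and 36% of the Lamb2 stretch. In the 250 bases before the start given in the promoter table, the share was 62% for Lamb1, higher than in 76.7% of promoters, and 43.6% for Lamb2, higher than in 20.1%. That start is at 31265293 for Lamb1, whose gene record begins at 31265146. For Lamb2 it is at 108479862, much closer to the beginning of its record at 108479847. The 50-base stretches thus lie at unlike distances from these starts. The letters GGGCGG occurred 2 times and CCAAT 1 time before Lamb1, on either strand, and both 0 times before Lamb2. Lama5, with 72.4%, and Hspg2, with 70%, had G and C shares near those of the collagen genes. Whether composition bears on the change of any gene was not tested.

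The nidogens, small glycoproteins that link laminin to type IV collagen, both rose, Nid2 far more than Nid1. Nid2 read 474, 632, 836, 768 and 710.1 on control arrays, 11106, 10864, 7352 and 8295 on day 5, 8418, 7909.6, 6489.8, 8173 and 12180.2 on day 20 and 732, 812, 502, 690.5 and 999 on day 60. No day 5 or day 20 array came near the control range, and the day 60 arrays lay within or close to it. Nid2 rose 12.1-fold on day 5 (log2 3.60 ± 0.20; adjusted p = 3.47e-10) and 11.1-fold on day 20 (3.47 ± 0.19, adjusted p = 3.01e-10). With the unassigned array as a control its log2 changes were 2.91 on day 5 and 2.78 on day 20, and both passed (adjusted p = 0.00388 and 0.00181).

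Nid1 read 25393, 27824, 33903, 30845 and 38372 on control arrays, 52075, 47163, 50589 and 54131 on day 5, 51767, 61111, 57666, 54624 and 60407 on day 20 and 59181, 23141, 17502, 37049 and 47333 on day 60. Days 5 and 20 were tight, with coefficients of variation of 5.8% and 6.9%, and the day 60 arrays spread from below every control array to above all but 2 day 20 arrays (46.4%). Nid1 rose 1.64-fold on day 5 (log2 0.72 ± 0.25; adjusted p = 0.0306) and 1.84-fold on day 20 (0.88 ± 0.23, adjusted p = 0.00762). The day 5 call ended without control A, B or D (adjusted p = 0.0719, 0.0537 and 0.0516), without day 5 B, D or E (0.064, 0.0556 and 0.0686), with the unassigned array as a control (0.106), and on the median of its probe sets (0.323), where the day 20 call ended too (0.386).

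Hspg2 encodes perlecan, a large heparan sulfate proteoglycan that holds growth factors in the matrix, and its probe sets differed. On the brighter one it read 3587, 3851, 5806, 4504 and 3481 on control arrays, 4518, 3223, 3370.4 and 3070.3 on day 5, 4035, 4949, 6147, 3377 and 2846 on day 20 and 3984, 3215, 2329, 3925 and 3958 on day 60, and all groups overlapped. There the log2 change was -0.24 ± 0.21 on day 5 (SE, limma adjusted p = 0.403) and -0.02 ± 0.20 on day 20 (adjusted p = 0.96, 95% interval -0.44 to 0.40). The other probe set read 3706, 668, 1697, 2436 and 3389.6 on control arrays, 2246, 3892, 4904 and 5188 on day 5, 3885, 5286, 4281, 4225 and 5803 on day 20 and 3309, 3851, 949, 2544 and 1394 on day 60. There every day 20 array lay above every control, and day 5 and day 60 overlapped with control. The log2 shift was 1.14 on day 20, with a limma adjusted p of 0.0374 over all probe sets tested, and 0.88 on day 5, with an adjusted p of 0.114. The Hspg2 probe sets thus differed on day 20 in whether a change passed.

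The 10 genes had 11 other probe sets, 8 of them for genes whose brightest probe set rose on both days. Of those 8, 4 rose on both days, 1 rose on day 20 and 3 passed on neither day. The second Col4a1 probe set, with a mean signal of 9885 beside 53762, had log2 changes of 2.17 on day 5 and 2.53 on day 20. The Lamb1 probe sets with mean signals of 3930.1 and 338.7 had 1.46 and 1.56 on day 5, close to the 1.42 of the brightest, while that with a mean of 414.9 had 0.55 and did not pass (adjusted p = 0.315). Second probe sets of Lama4 (mean signal 116) and Lamc1 (54.8) lay under the minimum signal of 300, and that of Lama4 passed on days 5 and 20 (1.12 and 0.95) while that of Lamc1 did not (0.43 and 0.30). On the median of its probe sets Lamc1 had 0.89 on day 20. For Nid1, the probe set with a mean of 974.6 had 0.61 on day 5 and did not pass on either day, and that with a mean of 573.8 had 0.80 on day 5, which did not pass (adjusted p = 0.0638), and 0.88 on day 20, which passed (0.0357). The other Lama5 probe sets, with mean signals of 496.9 and 63.1, had 0.23 and -0.01 on day 5 and did not pass. Where each probe set lies on its transcript was not analysed here. Col4a2, Lamb2 and Nid2 had 1 probe set each.

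**Figure D3:**
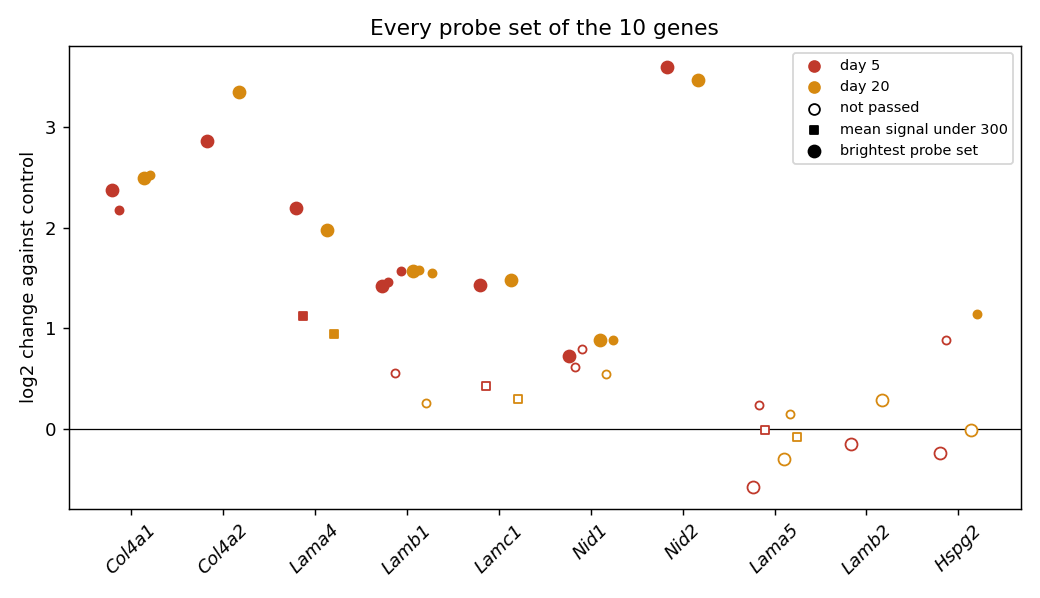
Log2 change against control (vertical axis) of every probe set of each gene on day 5 and day 20, from a fit over all probe sets. Large points are the brightest probe set, squares have a mean signal under 300 and open symbols did not pass. The Col4a1 probe sets lie together and those of Lamb1 lie together except one. On each day the brightest Hspg2 probe set lies at or slightly below 0 and the other above it.

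Between day 20 and day 5 none of the 10 genes passed in limma's test, beside 3.05% of tested genes higher and 2.25% lower (2 of the 10, Col4a2 and Lamb2, had an unadjusted p under 0.05, beside 19.9% of tested genes). The log2 differences ran from -0.23 for Lama4 to 0.49 for Col4a2. Lamb2 had the second largest difference, 0.43 ± 0.15 (adjusted p = 0.104), which passed with the unassigned array counted as day 5 (adjusted p = 0.0478).

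Day 60 was lower than day 20 for 7 of the 10 genes, beside 11.2% of tested genes, and none was higher (11.0%). Nid2 fell 10.3-fold (log2 difference -3.36 ± 0.19; adjusted p = 1.02e-09) and Col4a2 8.69-fold (-3.12 ± 0.19, adjusted p = 2.36e-09). Day 60 arrays all lay below all day 20 arrays for 6 of the 10 genes, the 7 without Nid1, and for 8.26% of tested genes. Col4a1 fell 4.86-fold, Lama4 3.77-fold, Lamc1 2.90-fold and Lamb1 2.86-fold. Nid1 fell 1.70-fold (adjusted p = 0.0229), a call that ended without day 20 B (adjusted p = 0.052), day 60 B (0.0612) or day 60 C (0.0578), in a fit of only both groups (0.0827), and on the median of its probe sets (0.328).

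Against day 5, 6 of the 10 genes were lower on day 60, beside 12.2% of tested genes, and none was higher (12.2%). In the same 6, and in 10.3% of tested genes, all day 60 arrays lay below all day 5 arrays. These were the genes that fell from day 20 except Nid1, and their log2 differences ran from -3.49 for Nid2 to -1.37 for Lamb1. Nid1 had -0.60 ± 0.25 (SE, limma adjusted p = 0.0827) and passed without day 60 A (adjusted p = 0.013), without day 60 E (0.0422) or with the unassigned array as day 5 (0.0472). These comparisons share arrays with those against control.

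On day 60 the 10 genes lay between -0.38 (Lama5) and 0.23 (Col4a2) in log2 change against control. The 95% intervals were -0.11 to 0.53 for Col4a1, -0.17 to 0.62 for Col4a2, -0.28 to 0.49 for Nid2 and -0.38 to 0.49 for Lama4. Each lay far below the change on day 20. Those of Lamb1 and Lamc1 were -0.23 to 0.33 and -0.55 to 0.44. For Nid1 the interval was -0.37 to 0.60 and overlapped with that of its day 20 change, 0.39 to 1.37. In order of mean log2 signal, Col4a1, Col4a2, Lamb1 and Nid1 ran control, day 60, day 5, day 20. Lama4 and Nid2 ran control, day 60, day 20, day 5, and Lamc1 day 60, control, day 5, day 20. In all of these except Nid1 only the middle step, from the lower pair of groups to the higher pair, passed, and for Nid1 no step between neighbours did (adjusted p = 0.844, 0.0827 and 0.769).

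Genes of the same class were then compared in pairs on the same array, as the log2 signal of the first minus that of the second. This shows unequal change but not unequal level. The pairs were chosen with earlier results of these data known. Of these pairs only the collagen chains are joined in the same trimer. Nid2 minus Nid1 went from -5.33 ± 0.18 in the 5 control arrays (± SD) to -2.45 ± 0.33 on day 5 (n = 4) and -2.74 ± 0.32 on day 20 (n = 5). Nid2 thus gained 7.36-fold over Nid1 on day 5 and 6.01-fold on day 20. Lama4 gained 6.88-fold over Lama5 on day 5 and 4.82-fold on day 20, from a difference of 0.37 ± 0.73 in the 5 control arrays (± SD) to 3.15 ± 0.39 on day 5 (n = 4) and 2.64 ± 0.39 on day 20 (n = 5). Lamb1 gained 2.96-fold over Lamb2 on day 5 and 2.44-fold on day 20.

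Between the collagen chains the inequality was smaller. Col4a2 minus Col4a1 was -1.80 ± 0.20 over the controls (± SD, n = 5), then -1.31 ± 0.21 on day 5 (n = 4), -0.94 ± 0.13 at day 20 (n = 5) and -1.78 ± 0.25 at day 60 (n = 5). Col4a2 gained 1.40-fold on day 5 and 1.81-fold on day 20. In all 8 comparisons of days 5 and 20 with control, the arrays of both groups did not overlap, and the two-sided exact permutation p was 0.00794, the smallest that 5 against 4 or 5 arrays can give (0.0119 adjusted over the 12 tests, 4 pairs on 3 days).

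On day 60 no pair passed. The shift against control was 0.44 for Lama4 minus Lama5 (exact permutation p = 0.286), 0.14 for the beta chains (exact p = 0.468), -0.01 for the nidogens (exact p = 0.984) and 0.02 for the collagen chains (exact p = 0.889), with adjusted values of 0.381 to 0.984. The Lama4 minus Lama5 calls of days 5 and 20 both ended on the median of all probe sets (log2 shifts 1.45 and 1.33, adjusted exact p = 0.143 for each). The Col4a2 minus Col4a1 call on day 5 ended without day 5 C (0.39, adjusted exact p = 0.0536).

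**Figure D4:**
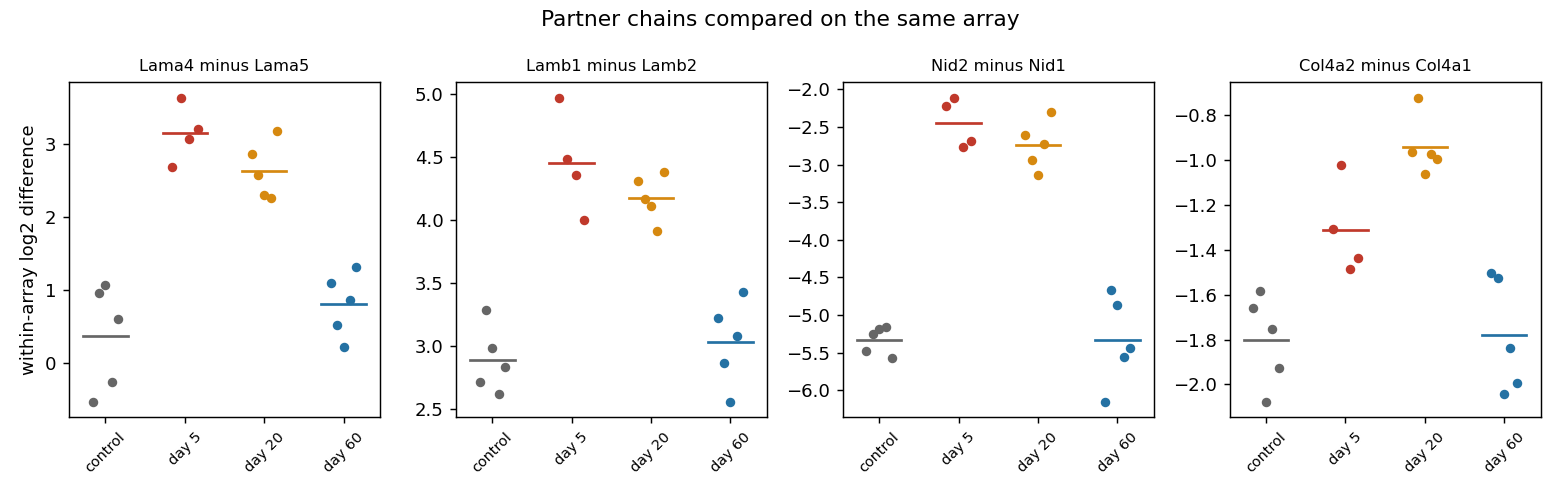
Within-array log2 difference between paired genes of the same class (vertical axis, scaled per panel) for the control, day 5, day 20 and day 60 arrays. Points are arrays and lines are group means. In each of the 4 panels all day 5 and day 20 points lie above all control points, and the day 60 points overlap with control.

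Other genes of the basement membrane and its assembly divided between both directions. Of 49 listed genes 46 were tested. On day 5, 14 rose and 10 fell, on day 20, 19 rose and 7 fell, and none passed on day 60. Over all tested genes 16.8% were higher and 17.5% lower on day 5, and 15.6% and 14.5% on day 20. The falls in these lists thus lay near the share over all genes. The same shares stand beside the counts of each list below. None of the 3 tested other laminin chains passed on day 5, and Lama2, the alpha chain of muscle and nerve laminin, rose on day 20 (log2 0.50 ± 0.19; adjusted p = 0.0486). Of the 4 other type IV chains, Col4a4 and Col4a5 fell on day 5 (-1.35 and -0.95, adjusted p = 0.00553 and 0.00196) and on day 20 (-0.95 and -0.74), while Col4a6 rose on day 20 (adjusted p = 0.0248). The type IV chains thus moved both ways, with Col4a1 and Col4a2 up and Col4a4 and Col4a5 down, while Col4a3 passed on neither day. On day 20 both falls overlapped with control. Col4a4 read 192.1 to 767.8 beside 634.8 to 1339.8 in control, and Col4a5 3204.7 to 6635.3 beside 5243.3 to 10409.3.

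Of 16 other components 5 rose and 6 fell on day 5, and 8 rose and 3 fell on day 20. Col18a1, the collagen from which endostatin is cut, rose from 2616 ± 795 to 17265 ± 2425 on day 5 (SD, n = 5 and n = 4) and 17214 ± 2505 on day 20 (n = 5), or 6.55-fold and 6.52-fold. Sparc, a matricellular protein that binds type IV collagen, rose 3.97-fold and 5.00-fold. Smoc2, a relative of Sparc, fell on day 5 (-1.61 ± 0.25, limma adjusted p = 6.37e-05), as did Frem2 (-1.01), a protein that anchors epithelia. On day 20 Smoc1 fell (-0.84, adjusted p = 0.00317).

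Of 10 chaperones and enzymes that fold, modify and crosslink collagen, 6 rose on each of days 5 and 20 and none fell. Serpinh1, a collagen chaperone, had log2 changes of 1.42 and 0.94, and Pxdn, the peroxidase that crosslinks type IV collagen, 1.41 and 1.05. Their median log2 change was 0.91 on day 5 and 0.73 on day 20.

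Of 13 receptors, 3 rose and 2 fell on each of days 5 and 20. Over all tested genes the shares were 16.8% and 17.5% on day 5 and 15.6% and 14.5% on day 20. The 3 that rose on both days were integrin chains, while Itga2, Itga3 and Itga7, integrin chains too, passed on neither day. Itga1, which with Itgb1 forms a receptor for type IV collagen, rose on day 5, from 666 ± 107 to 8470.4 ± 2336 (SD over 5 and 4 arrays; log2 3.46 ± 0.28; adjusted p = 6.61e-08), and by 3.49 on day 20. Itgb1 had log2 changes of 1.97 and 1.81, and Itga6, which with Itgb1 binds laminin, 1.96 and 1.43. Itgb4, the laminin receptor chain of epithelial hemidesmosomes, fell on day 20 (adjusted p = 0.0338), and Dag1, dystroglycan, fell on day 5 (-0.43). Ddr1, a collagen receptor kinase, fell on both days (-0.86 and -0.80).

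**Figure D5:**
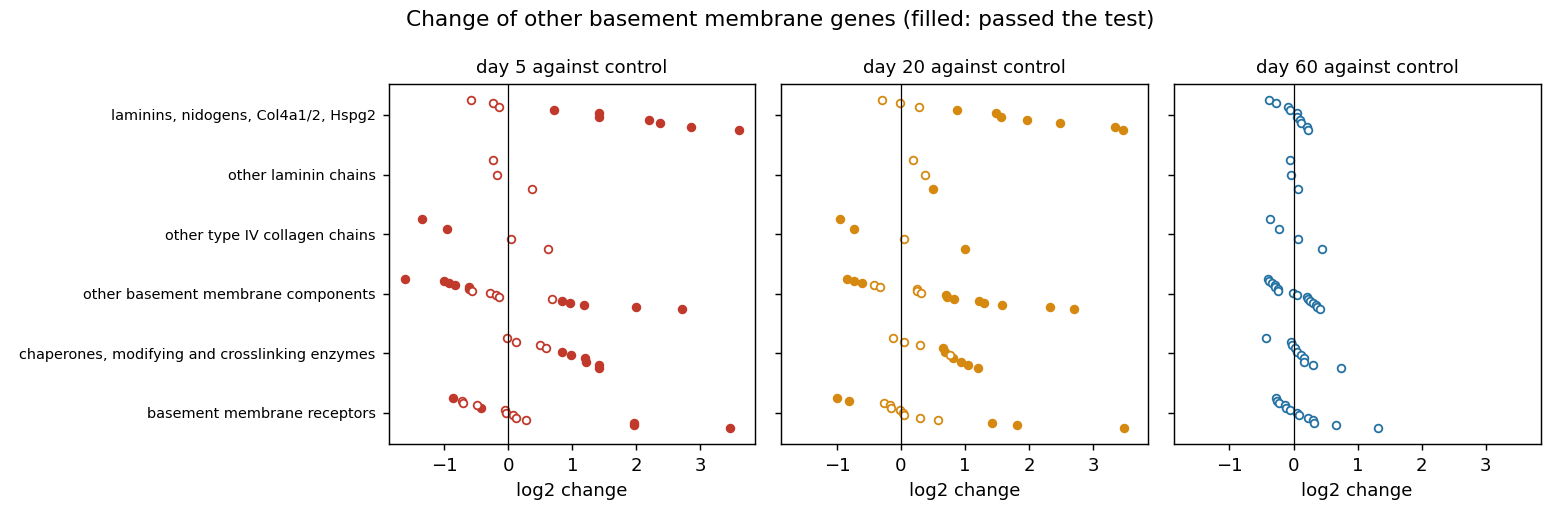
Log2 change against control (horizontal axis) of the 10 genes and of 5 lists of related genes on day 5, day 20 and day 60. Each point is a gene and filled points passed the test. On days 5 and 20 the receptor list holds 3 filled points far to the right, the enzyme list leans right and the components spread both ways, and on day 60 every point is open.

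The 7 genes that rose varied together over the 19 arrays, with Pearson correlations of 0.75 to 0.99 between pairs (median 0.93), which include the differences between groups. With group means removed the range was 0.08 to 0.85 (median 0.4). The highest was Lamc1 with Nid1 (0.85) and the second highest Col4a1 with Col4a2 (0.76). Both Lamc1 and Nid1 spread most on day 60, with coefficients of variation of 38.6% and 46.4%. Day 60 A was the highest and day 60 C the lowest of that group for both genes. Between a gene that rose and Lama5, Lamb2 or Hspg2 the correlations ran from -0.38 to 0.33. The genes most like Col4a1 over the 19 arrays were Sema6d, a semaphorin (r = 0.99), Fam167b, Adam12, a metalloproteinase, Cd93, an endothelial lectin that binds matrix, and Pcdh12, an endothelial protocadherin (r = 0.98 each).

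Chosen in the same way, the genes most like Nid2 were Kctd12b, Fam167b, Armcx2, Gimap4 and Gask1b (r = 0.98 each). For Lamb2 the closest was Egflam, pikachurin, a matrix ligand of dystroglycan (r = 0.84), followed by Sirt2 (0.83), Arhgef25 (0.82), Tbc1d8 (0.75) and Lin7a (0.75). These descriptions rest on arrays that share processing and groups.

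Markers of vessel cells moved with the genes that rose. Of 12 endothelial markers 11 rose on day 5 and 12 on day 20, with median log2 changes of 2.18 and 1.91, and 0 passed on day 60. Their mean log2 signal was 9.89 to 10.39 on control arrays, 12.02 to 12.16 on day 5, 11.69 to 12.21 on day 20 and 9.75 to 10.60 on day 60. Of 9 pericyte markers 8 rose on day 5 and 9 on day 20, and 0 passed on day 60. Their mean log2 signal was 11.02 to 11.46 on control arrays, 12.34 to 12.69 on day 5, 13.05 to 13.25 on day 20 and 11.17 to 11.71 on day 60. Col4a1, Col4a2 and Nid2 had larger changes on both days than the medians of both lists. Lama4, with 2.20 ± 0.22 and 1.97 ± 0.21, lay within its standard error of the endothelial median on both days. Lamb1, Lamc1 and Nid1 had smaller changes than the endothelial median. These gaps to the medians were not tested. The part of cell numbers in these changes was not tested.

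Markers of other cell types changed too. Of 8 macrophage markers 6 rose on day 5 (mean log2 signal 13.70 to 14.26 against 11.23 to 12.51 in control), and 2 rose and 1 fell on day 20. Of 7 adipocyte markers 5 fell on day 5 and 5 on day 20 (11.60 to 11.98 and 10.99 to 11.47 against 13.20 to 14.31), and 1 was lower on day 60. Of 8 skeletal muscle markers 3 fell on day 5 and 0 on day 20, and of 6 Schwann cell markers 3 fell on day 5 and 1 on day 20. Of 8 fibroblast markers 3 rose and 4 fell on day 5, and 3 rose and 2 fell on day 20. Of 6 smooth muscle markers 1 rose and 2 fell on day 5, and 3 rose and 1 fell on day 20. Of 8 epidermal markers 0 passed on day 5 and 2 fell on day 20. No marker was listed at 0 on any array, the lowest signal in the table being 0.208. Their part in the levels of the basement membrane genes was not tested.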

How the data were processed

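The authors deposited linear intensity (MAS5 signals) for each probe set. They were computed in GCOS 1.3, per the submitters' processing notes, with a scaling factor of 1500, per the labels. Genome positions and sequences come from RefSeq tables of GRCm38.p6, and 7 of the 10 genes had a promoter entry. Of 45101 probe sets, 34945 had 1 gene symbol, 932 several and 9224 none here, and 34741 matched the current gene table by identifier.

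Each of 18193 genes was represented by its brightest probe set on average, and the 13594 that averaged 300 or more were tested with limma 3.58.1 in R 4.3.3, on log2(signal + 100), in 1 fit of all 19 assigned arrays (lmFit, eBayes with a trend, two-sided, Benjamini-Hochberg adjusted over all genes tested). No further normalization was applied. Probe sets other than the brightest were fitted over all probe sets. The fit was first tested on simulated data. Paired genes of the same class were compared with exact permutation tests over arrays.

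Named genes were the 10 members, the 3 highest and 3 lowest passing genes over 5 related lists together, per day against control, the 5 genes most correlated with Col4a1, Nid2 and Lamb2 each, and Vegfa. The correlated genes were taken from outside the 10 members, with clone and model names passed over. Lama2, Col4a6, the chaperones and enzymes, and further type IV chains and receptors were named after their values were seen. The members, lists and tests were chosen with earlier results of these data known. The number of arrays limits the precision. Alternatives are given in the closing section.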

Additional observations from a re-analysis of the deposited data

Results flagged for a closer look

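The array left out of every comparison, with a day 5 title and a control source name, lay above every control array in 7 of the 10 genes, beside 26.5% of tested genes. It read 80164 for Col4a1, 36953 for Col4a2, 8316 for Lama4, 22286 for Lamb1, 13102 for Lamc1, 52999 for Nid1 and 13573 for Nid2. Its Actb 3' to 5' ratio was 3.1.

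Effects against control differed between days by the test of the difference itself (limma, adjusted p under 0.05). Between day 60 and day 5 the log2 difference was -2.16 for Col4a1, -2.63 for Col4a2, -2.14 for Lama4, -1.37 for Lamb1, -1.48 for Lamc1 and -3.49 for Nid2. Between day 60 and day 20 it was -2.28 for Col4a1, -3.12 for Col4a2, -1.91 for Lama4, -1.52 for Lamb1, -1.54 for Lamc1, -0.77 for Nid1 and -3.36 for Nid2. In none of 40 groups of arrays (10 genes in 4 groups) did the highest or lowest array stand apart by Dixon's criterion, where chance would flag about 1 in 20.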

How the results depend on the processing

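The count of genes higher on day 5 was 6 or 7 when single arrays were left out. That on day 20 stayed at 7. On the second probe sets Lamc1 (limma adjusted p = 0.247 and 0.415) and Nid1 (0.215 and 0.252) lost their calls on days 5 and 20. Hspg2 passed there on day 20. On the median of all probe sets Nid1 lost both calls. Under every alternative run no gene was called on day 60 against control. The count lower on day 5 was 0 and became 1, Lama5, with array weights, and ranged from 0 to 1 when single arrays were left out. The count higher on day 20 than on day 5 was 0 and became 1 in a fit of only both groups, with the unassigned array as day 5, and with day 60 arrays A, B and D all left out. The count lower on day 60 than on day 20 was 7, became 4 on the second probe sets of the genes, several of them dim, and ranged from 6 to 8 when single arrays were left out. On its second probe set Hspg2 turned from -0.02 to 1.14 on day 20. The cause was not tested.

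Letters of the titles were shared between groups. Of 27 same-letter pairs 11 had correlated deviations above 0.1 and 6 correlated best with their own letter. These correlations cannot show whether same-letter arrays were matched. With the replicate block by letter the counts stayed at 7 and 7 higher on days 5 and 20 and at 6 and 7 lower on day 60 against days 5 and 20. For the paired genes with arrays matched by letter, the exact sign-flip test of 4 or 5 array pairs cannot reach an adjusted 0.05. Its shifts on days 5 and 20 were 2.56 and 2.27 for Lama4 minus Lama5, 1.52 and 1.29 for Lamb1 minus Lamb2, 2.84 and 2.59 for Nid2 minus Nid1, and 0.52 and 0.86 for Col4a2 minus Col4a1 (adjusted p = 0.188 each). On the median of all probe sets Lama4 minus Lama5 gave 1.45 and 1.33 (adjusted p = 0.143). With single arrays left out, Col4a2 minus Col4a1 on day 5 ranged from 0.39 to 0.55.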

Other observations

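Day 60 array C had the lowest signal of its group in 7 of the 10 genes and the highest in 1, Lamb2. Its Actb 3' to 5' ratio was 4.32, the lowest of the day 60 arrays, and its mean log2 signal was 10.36 for endothelial markers, 11.35 for pericyte markers and 17 for skeletal muscle markers, the last being the highest of the day 60 arrays. On day 20, array E was the highest of its group in 7 of the 10 genes and in the mean log2 signal of the endothelial (12.21), skeletal muscle (16.24) and adipocyte (11.47) markers. Its Actb and Gapdh 3' to 5' ratios, 7.56 and 2.71, were the highest of day 20 too.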
